A study of Mus musculus with 6 samples.

Results

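Fibroblast growth factor (FGF) signalling was followed through 10 listed genes, out of 55450 genes in the annotation: the ligands Fgf4 and Fgf5, the receptors Fgfr1, Fgfr2, Fgfr3 and Fgfr4, the feedback inhibitors Spry2, Spry4 and Dusp6, and the transcription factor Etv5. The genes were listed by name, with earlier results of these data known. CAGE, which sequences the 5′ ends of capped RNAs, was applied to nuclear RNA from mouse embryonic stem cells (mESCs) and from mouse oligodendrocyte progenitor cells (mOPCs), with 3 libraries each. Tags were summed within 500 bp of every annotated 5′ end of a gene on its own strand and divided by the total of the library, so that a level is given as tags in every 1000000 of the library, written TPM for tags and not for transcripts. Because CAGE yields 1 tag per RNA 5′ end, these levels need no correction for gene length. They can be compared between genes as far as the starts in use lie inside the windows.

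The mESCs were the R08 line, grown without feeder cells in medium with 15% FBS and 1000 U/ml LIF. The mOPCs were the Oli-neu line, grown on poly-L-lysine with N2 supplement, 340 ng/ml T3, 400 ng/ml L-thyroxine, 10 ng/ml bFGF and 1 ng/ml PDGF-BB. Each cell type was thus represented by 1 line, and the libraries of a cell type carry 1 library label that differs from that of the other. The cell type, the medium (with an added FGF in mOPCs only) and the library preparation therefore cannot be told apart. The study's methods define biological replicates as cell batches that differ in passage number, without naming CAGE, so that p-values measure the spread between libraries, which may be technical.

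FGF ligands bind receptor tyrosine kinases on the cell surface, and the activated receptor signals through adaptor proteins to RAS and the kinases RAF, MEK and ERK. ERK signalling switches on its own brakes, among them the Sprouty proteins, which act upstream of RAF, and the phosphatase DUSP6, which inactivates ERK, together with ETS factors such as ETV5. In embryonic stem cells, FGF4 is the autocrine ligand that drives ERK signalling and readiness to differentiate, while in the oligodendrocyte lineage FGF receptors are known to act on the proliferation of progenitors and on myelin growth.

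The 6 libraries held between 16657021 and 40928704 tags. Of 6 pluripotency markers, 5 had no tag in mOPCs, and Esrrb had 0.356 TPM against 252 in mESCs. The summed level of the 6 progenitor markers was 1399 to 1494 TPM in mOPCs and 7.23 to 8.16 in mESCs, but Nkx2-2 was at 0 in mOPCs and Pdgfra, the PDGF receptor of progenitors, reached only 8.33. The 6 markers of differentiated oligodendrocytes summed to 339 to 370 TPM in mOPCs, led by Mbp at 183, against 12.1 to 14.6 in mESCs. In mESCs the 4 primitive endoderm markers, which also include Pdgfra, summed to 26.8 to 31.3 TPM, against 7.84 to 8.63 in mOPCs, where Gata6 and Sox17 were at 0. The 4 astrocyte markers summed to 18.5 to 20.8 in mESCs and 56.2 to 63.4 in mOPCs, the 4 fibroblast or feeder markers to 17.9 to 23.4 and 9.67 to 12.3, the 5 neuronal markers to 279 to 305 and 81.3 to 102, and the 3 microglial markers to at most 0.139. Single genes carried some of these sums and went opposite ways: among the neuronal markers Stmn2 went from 283 TPM in mESCs to 0 and Syt1 from 3.45 to 88.3, and among the fibroblast markers Thy1 went from 17.5 to 0.0197 and Col1a1 from 2.20 to 11.1. The part of these markers' cell states in the results below was not tested, and in such bulk samples fewer cells of a type and less RNA per cell cannot be told apart.

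The start sites of 3 genes are shown: Fgf4 for its narrow start in mESCs, Dusp6 for a span that differed between the cell types, and Etv5 for the balance of 2 positions. Starts of other members, described below, also differed between the cell types. The sequences are from RefSeq (GRCm38, the mm10 build of the files), in which 8 of the 10 genes have a promoter entry. For Fgf4 (chr7:144861285-144861395, plus strand) and Dusp6 (chr10:99263130-99263240, plus strand), capitals mark a promoter motif and, close to the 3′ end of the stretch, the position with the most tags. For Etv5 (chr16:22439605-22439634, minus strand), the capitals mark the 2 leading start positions.
Fgf4: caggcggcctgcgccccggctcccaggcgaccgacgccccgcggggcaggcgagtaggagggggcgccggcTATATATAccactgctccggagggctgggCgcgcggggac
Dusp6: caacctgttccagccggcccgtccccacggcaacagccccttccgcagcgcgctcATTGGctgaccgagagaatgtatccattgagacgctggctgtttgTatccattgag
Etv5: cgggttgcagggcggCgCagagtccggagg

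In Fgf4, overlapping matches of TATATA ended 22 bases before the leading start, and in Dusp6 a match of CCAAT on the opposite strand, printed as ATTGG, lay 41 to 45 bases before it. Over 32544 distinct RefSeq promoters of 300 bases, searched on both strands, TATATA occurred in 5.44% and, among the 8 members with an entry, in Fgf4. CCAAT occurred in 37.4% of promoters and in 4 of the 8 members (Fgf4, Fgfr3, Dusp6 and Etv5). The related motif TATAAA occurred in 13.6% and in Fgf5, and GGGCGG in 35.9% and in 5 members (Fgf4, Fgf5, Fgfr3, Fgfr4 and Etv5). Matches of TATATA and TATAAA can overlap one another. Each marked start was a C or a T followed by a G or an A. The leading position lay 1 bp upstream of the annotated 5′ end in both Fgf4 and Dusp6. Whether a base added at the cap was trimmed is not given, so the marked bases may lie 1 bp off the first base of the RNA.

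Of the 10 genes, 9 passed the filter on low counts. In mOPCs, Fgfr3, Dusp6 and Spry2 were called higher and Fgf4, Fgfr2, Fgfr4, Spry4 and Etv5 lower at an adjusted p under 0.05 (edgeR quasi-likelihood test, Benjamini-Hochberg adjustment over 18490 genes), whereas Fgfr1 was not called. Such calls were frequent between these lines: 42.1% of all tested genes were called higher and 48.9% lower in mOPCs. The 3 higher and 5 lower calls among 9 genes lie near these shares and are no result about the members, so that the sizes of the differences are described instead. The median log2 fold change (mOPCs over mESCs) of all tested genes was -0.19, and 67.0% of them differed by more than 1 on this scale in either direction, as did 5 of the 9 members (Fgf4, Fgfr2, Fgfr3, Fgfr4 and Spry4).

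**Figure D1:**
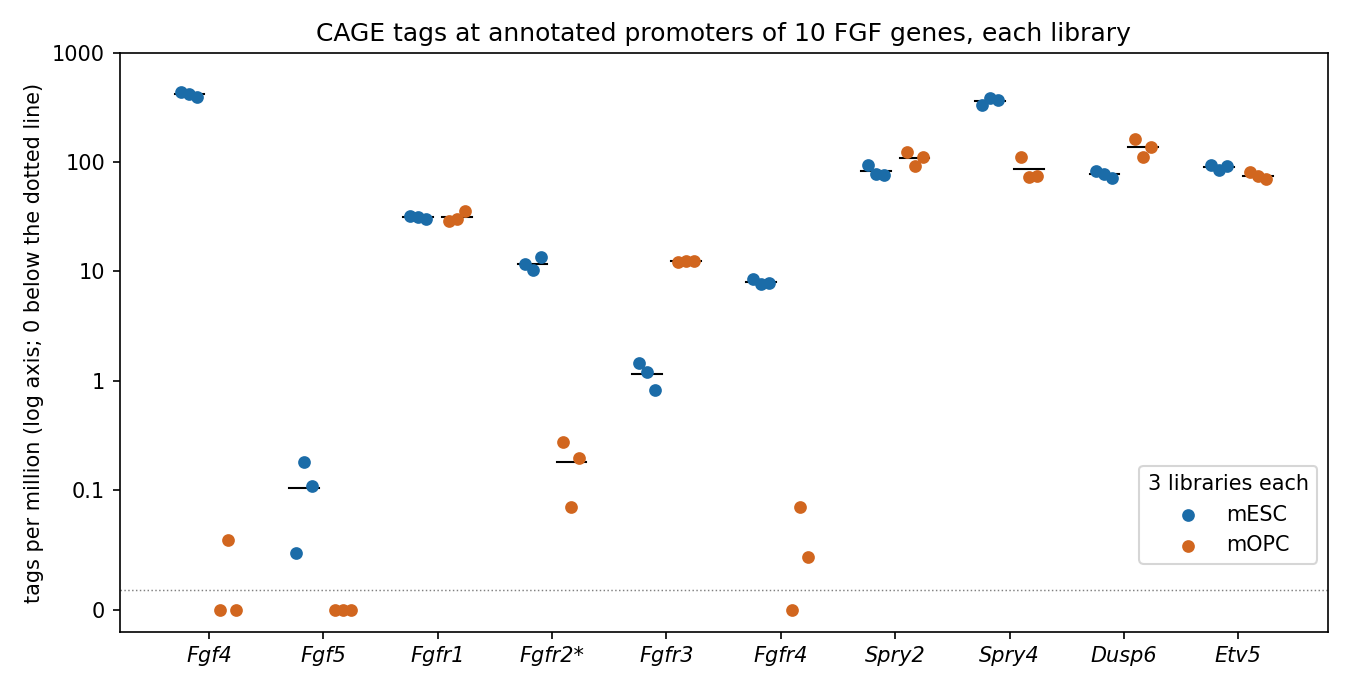
TPM at the annotated promoters of the 10 genes in each of 3 mESC and 3 mOPC libraries, on a log axis with libraries at 0 drawn below the dotted line; horizontal bars are means, drawn where no library was at 0. Fgfr2 (asterisk) shows its own promoter region alone, without tags shared with Ctbp2. Fgf4, Fgfr2 and Fgfr4 fell to or near 0 in mOPCs, Fgfr3 was higher there, and Fgfr1 overlapped.

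Fgf4, the autocrine ligand of pluripotent cells, was the most abundant of the 10 genes in mESCs once the tags that Fgfr2 shares with Ctbp2 were left out. Its promoter region at chr7:144860886-144861886 held 437, 420 and 399 TPM in the 3 mESC libraries (30922 tags in all) and no tag in any mOPC library. Against a floor of 3 tags over all mOPC libraries, it was at least 12952-fold lower in mOPCs, a bound that covers counting error only. The annotation gives Fgf4 a second 5′ end, at chr7:144847367, in whose window there was 1 tag in 1 mOPC library and none in mESCs.

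Fgf4 RNAs started within a very narrow stretch. The leading position, chr7:144861385, took 61.0%, 60.3% and 61.4% of the region's tags in the 3 mESC libraries, and the next 2 positions, 4 and 2 bp downstream, took 17.9% ± 0.64 and 11.5% ± 0.29 (SD, n = 3). The span from the 10th to the 90th percentile of tags was 5 bp in each library. On the opposite strand of the same window there were 5.45 ± 0.94 TPM in mESCs (SD, n = 3) and no tags in mOPCs.

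The 3 protein-coding genes whose levels over the 6 libraries lay nearest to those of Fgf4, by Euclidean distance of log2(TPM + 1), were Tdh at 0.20, L1td1 at 0.24 and Utf1 at 0.27. Their mean levels in mESCs were 449, 402 and 461 TPM, and all were at 0 in mOPCs.

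Fgf5, a ligand that marks the transition from naive to primed pluripotency, was close to silent in both lines. Its window at chr5:98253684-98254912 held 1, 3 and 2 tags in the mESC libraries, or 0.0264, 0.180 and 0.109 TPM, and 0 in the mOPC libraries. The mESC libraries thus lay above 0 and those of mOPCs at 0, but with 6 tags in all the gene did not pass the filter and was not tested; without a filter it was called lower in mOPCs (adjusted p = 0.0197, edgeR). Against the floor of 3 tags over the mOPC libraries it was at least 2.51-fold lower in mOPCs, by counting alone.

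The mix of receptors differed between the lines. Summed over the 4 genes, without windows shared with other genes, receptor promoters held 53.8, 50.7 and 52.5 TPM in mESCs and 41.5, 42.8 and 48.8 in mOPCs. The groups did not overlap, and the exact permutation test gave p = 0.1, the smallest value that 3 libraries against 3 allow. Of these receptor tags in mESCs, Fgfr1 took 59.8% ± 2.12, Fgfr2 22.8% ± 2.69, Fgfr4 15.2% ± 0.53 and Fgfr3 2.20% ± 0.59 (SD, n = 3). In mOPCs, Fgfr1 took 71.5% ± 2.12 and Fgfr3 28.0% ± 2.11, with 0.424% ± 0.25 for Fgfr2 and 0.0707% ± 0.083 for Fgfr4. The shares of each of the 4 receptors did not overlap between the cell types, with exact permutation p = 0.1 for each before any adjustment, and the same value after Benjamini-Hochberg adjustment over the 4.

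**Figure D2:**
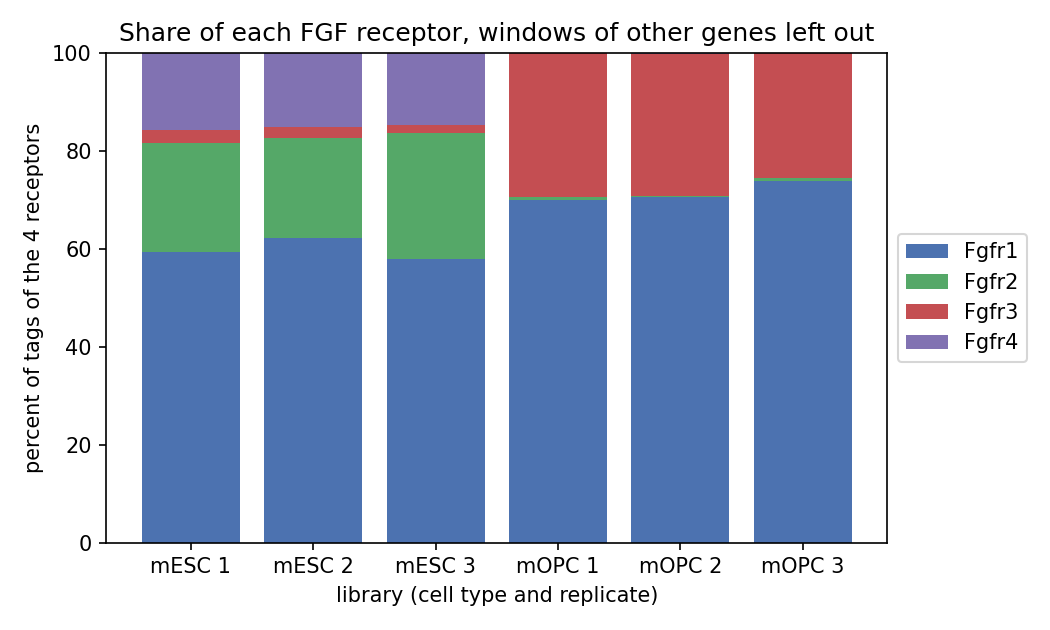
Percent of the tags of the 4 FGF receptors that each receptor took, in each of the 3 mESC and 3 mOPC libraries, with tags in the windows of other genes left out. Fgfr1 took the largest share in every library, Fgfr2 and Fgfr4 had visible shares in mESCs only, and Fgfr3 took 25.6% to 29.3% in mOPCs.

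Fgfr1, the most abundant FGF receptor in both lines, was not called different in level. It held 32.0, 31.5 and 30.4 TPM in mESCs and 29.1, 30.2 and 36.1 in mOPCs. The groups overlapped, with a log2 fold change of 0.00 (SE 0.094, 95% interval by a normal approximation -0.18 to 0.19) and an adjusted p of 0.992 (edgeR). Relative to the median of all genes this was a difference of 0.19.

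The choice of start in Fgfr1 differed. Of its 8 promoter regions, the region with 7 annotated 5′ ends at chr8:25518259-25520337 took 92.3% ± 0.82 (mESCs) and 96.2% ± 1.05 (mOPCs) of all Fgfr1 tags (SD, n = 3). The most upstream region, at chr8:25513154-25514154, held 36, 17 and 16 tags in the mESC libraries (2.97%, 3.24% and 2.85% of the gene) and none in the mOPC libraries. At 69 tags against 0, it was at least 28.9-fold lower in mOPCs by the same floor, and its use relative to the rest of the gene was called lower (edgeR diffSpliceDGE, adjusted p = 1.84e-15). A further region, at chr8:25531625-25532781, held 18, 13 and 12 tags in mESCs and 5, 4 and 6 in mOPCs. Its share fell from 2.03% ± 0.50 to 0.550% ± 0.21, a log2 difference in use of -1.28 (diffSpliceDGE, adjusted p = 8.27e-05), and the libraries did not overlap. The fitted differences in use are relative to the whole gene, so that a region with nearly all tags lies close to 0 by construction.

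Over all genes with several promoter regions, 28.3% of 8555 regions were called more used and 20.3% less used in mOPCs. Among the 13 member regions tested, 1 was called more used (in Dusp6, below) and 2 less used (both in Fgfr1). Tags of shared windows were kept in this fit. The 2 Fgfr2 regions tested thus compare Fgfr2's own region with the window it shares with Ctbp2. The Fgfr1 region at chr8:25531625-25532781 was not among the regions tested, and so not called, in libraries thinned to the smallest total, with 1-tag positions left out or with a window of 100 bp.

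Within the main Fgfr1 region, the position chr8:25518791 took 34.7%, 37.4% and 32.1% in mESCs and 43.9%, 47.1% and 46.3% in mOPCs. A second start, 29 bp upstream at chr8:25518762, took 17.2% ± 1.06 in mESCs and 9.43% ± 0.54 in mOPCs (SD, n = 3). Both shares separated the cell types, each with an exact permutation p of 0.1, the smallest possible. The 10th to 90th percentile span was 34, 32 and 32 bp in mESCs and 58, 59 and 64 bp in mOPCs, but the span of the central 50% of tags was 12.3 bp narrower in mOPCs, so the direction of a width difference depended on the percentiles taken. With 1-tag positions left out, the difference of 27.7 bp in the 10th to 90th percentile span was 8 bp.

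Fgfr2, whose splice forms bind different sets of FGFs, was nearly switched off in mOPCs. Its own promoter region, at chr7:130265691-130266763 with 4 annotated 5′ ends, held 11.7, 10.2 and 13.5 TPM in the mESC libraries and 0.274, 0.0694 and 0.195 in those of mOPCs, or 863 tags against 16. The groups did not overlap. With tags shared with other genes left out, the log2 fold change was -6.00 (SE 0.24, adjusted p = 1.55e-40, edgeR).

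Counting by annotated 5′ ends alone would have given Fgfr2 a different size. A single annotated transcript of Fgfr2 starts at chr7:133123350, inside the promoter window of Ctbp2, a transcriptional corepressor gene on the same strand. The window of that 5′ end held 98.2% ± 0.39 of the tags assigned to Fgfr2 in mESCs and 98.9% ± 0.58 in mOPCs (SD, n = 3), and these tags cannot be told apart from those of Ctbp2. With them, Fgfr2 reached 698, 726 and 613 TPM in mESCs and 18.1, 16.7 and 17.2 in mOPCs, with a log2 fold change of -5.32 (SE 0.10). Ctbp2 itself held 768 ± 58.1 TPM in mESCs and 31.5 ± 0.52 in mOPCs (SD, n = 3).

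Transcription of Fgfr2 in mESCs did not start at a fixed base. The leading position was chr7:130266255 in mESC libraries 1 and 2, with 12.4% of tags in each, and chr7:130266290 in library 3, with 14.5% against 14.1% at the former, a near tie. The 10th to 90th percentile span was 49, 53 and 50 bp. The mOPC libraries, with 6, 2 and 8 tags, were too thin for a span.

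Fgfr3 was the receptor that rose. It held 1.45, 1.2 and 0.814 TPM in mESCs and 12.2, 12.4 and 12.5 in mOPCs. Every mOPC library lay above every mESC library, with a 9.93-fold difference (log2 3.31, SE 0.17, adjusted p = 2.16e-25, edgeR). The first of its 3 regions, chr5:33721174-33724272, which joins 8 annotated 5′ ends, took nearly all of the tags, 94.3% ± 0.86 for mESCs and 96.7% ± 1.40 for mOPCs (SD, n = 3).

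Starts of Fgfr3 were spread over 55 to 57 bp in the mOPC libraries and 60 bp in the mESC library with enough tags. In mOPCs the positions chr5:33721789 and chr5:33721792 were nearly equal, at 24.7% ± 1.73 and 23.3% ± 1.59 of tags (SD, n = 3). The opposite strand of the region also held more tags in mOPCs, 1.22 ± 0.24 TPM against 0.128 ± 0.081 in mESCs (SD, n = 3), without overlap (exact permutation p = 0.1). The genes nearest to Fgfr3 in level over the 6 libraries, by the same measure, were AW011738 at 0.38, Kiss1r at 0.41 and Cnksr2 at 0.42.

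Fgfr4, the receptor that binds FGF19-type hormones in liver, was an mESC gene here. It held 8.50, 7.62 and 7.76 TPM in mESCs, and 0, 0.0694 and 0.0244 in mOPCs, which were 0, 2 and 1 tags. The ratio of 592 to 3 pooled tags gave a 248-fold lower level in mOPCs, with a 95% exact binomial interval of 84.4 to 1206 that covers counting error only, and the gene was called (adjusted p = 1.40e-29, edgeR).

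In mESCs, Fgfr4 RNAs came from 2 promoter regions. The first, chr13:55152140-55153140, took 61.2%, 55.9% and 58.0% of tags, and the second, chr13:55155183-55156617, the remaining 38.8%, 44.1% and 42.0%. The 3 mOPC tags all lay in the second region. In the fit of promoter use neither region was called (adjusted p = 0.0884 and 0.413, diffSpliceDGE). The leading start of the first region was not at its annotated 5′ end but 140 bp downstream in mESC libraries 1 and 2. In library 3, with 83 tags in the region, that position took 15.7% and one 186 bp downstream 18.1%, which is too few tags to order them.

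Of the 3 feedback inhibitors among the members, Spry4, which acts on the path to RAF, was the one that fell. It held 337, 385 and 374 TPM in mESCs and 112, 73.1 and 74.3 in mOPCs. No mOPC library reached an mESC library, and the level fell to 0.233 of that in mESCs (log2 -2.10, SE 0.16, adjusted p = 9.20e-07, edgeR). The gene, on the minus strand of chromosome 18, has 1 annotated 5′ end.

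Spry4 also changed in the base at which its RNAs began. In mESCs the leading position, 67 bp downstream of the annotated 5′ end, took 67.1%, 68.2% and 67.6% of tags, and a position 2 bp further downstream took 13.9% ± 0.15 (SD, n = 3). In mOPCs the same positions were about equal, with 33.5%, 38.2% and 34.1% at the first and 37.1%, 33.8% and 33.6% at the second. The shares of both positions separated the cell types (exact permutation p = 0.1 each, the smallest possible), and the 10th to 90th percentile span went from 4 bp in every mESC library to 16, 23 and 23 bp in mOPCs. The mean difference of 16.7 bp shrank to 2.0 bp for the central 50% of tags.

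The opposite strand of the Spry4 promoter went the other way. There, a long intergenic non-coding RNA, AC133601.1, held 2.67, 2.76 and 2.66 TPM in mESCs and 47.2, 41.0 and 35.7 in mOPCs. It was higher in every mOPC library, with a log2 fold change of 3.90 (SE 0.13, adjusted p = 1.59e-34, edgeR).

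**Figure D3:**
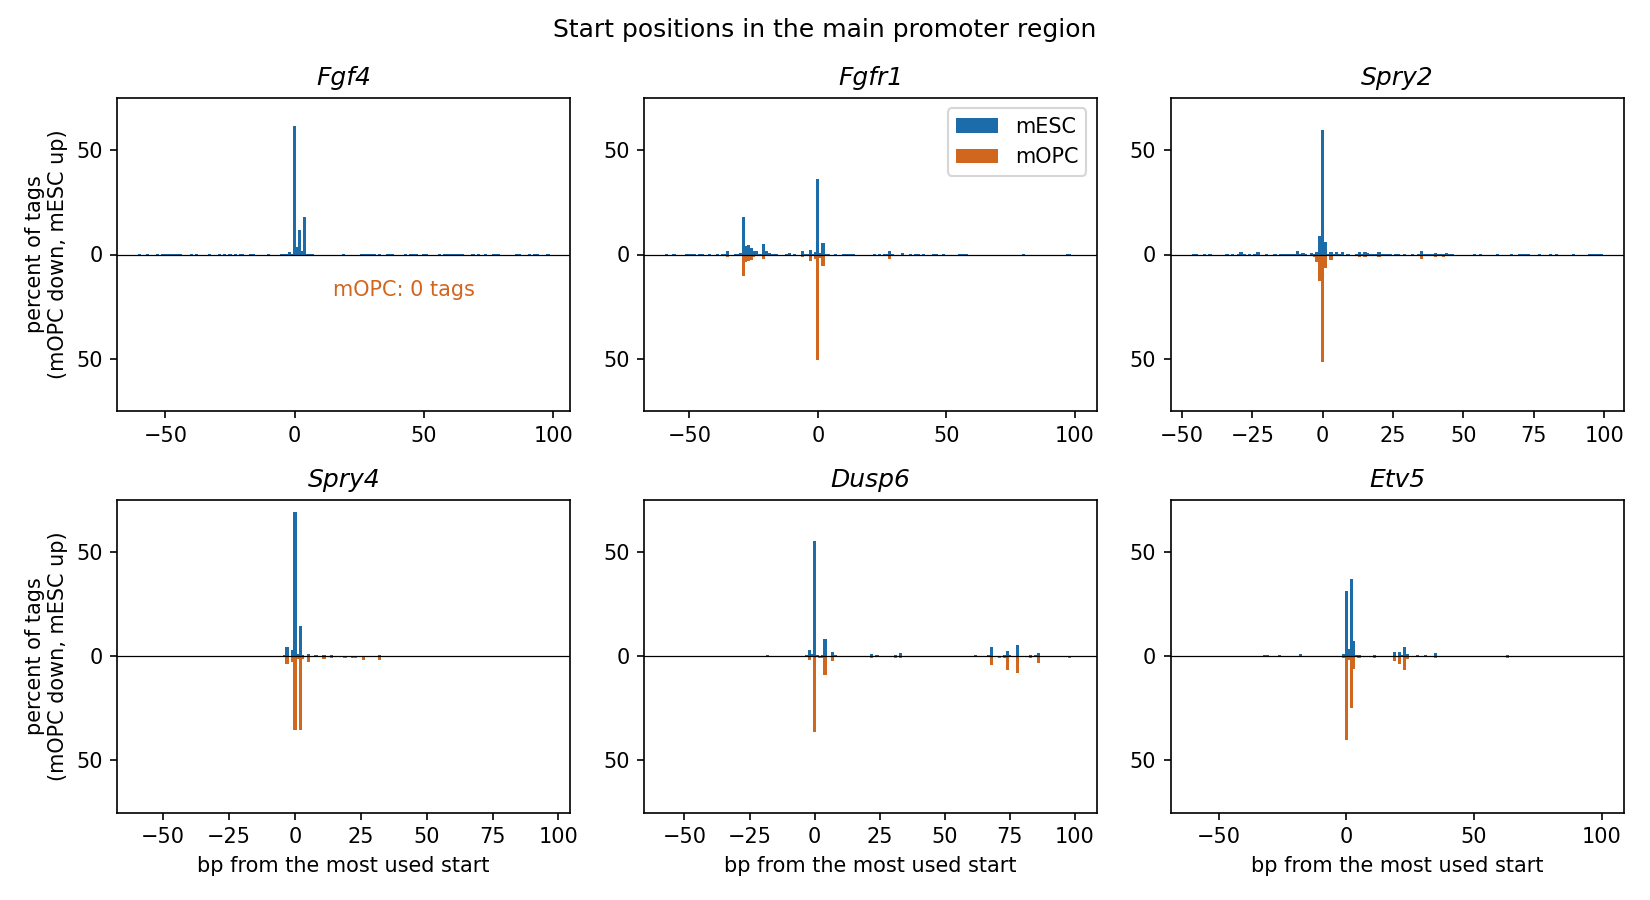
Percent of mean TPM over 3 libraries by distance in bp from the most used start of the plotted promoter region, with mESCs upward and mOPCs downward. The total is that from -100 to 150 bp of this start, so percents can differ from shares of the whole region in the text. Fgf4 had no mOPC tags, the 2 leading starts of Spry4 and Etv5 changed their balance, and Dusp6 had more tags downstream in mOPCs.

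Spry2, the other Sprouty gene among the 10, differed little, and the difference depended on how far the window reached. It held 95.1, 78.0 and 76.2 TPM in mESCs and 125, 91.5 and 112 in mOPCs. The lowest mOPC library lay below the highest mESC library, although the fit called the gene higher in mOPCs (log2 0.37, SE 0.11, adjusted p = 0.00462, edgeR). With a window of 1000 bp the levels were 124, 102 and 105 against 127, 93.7 and 115 TPM, and the call was lost (log2 -0.026, adjusted p = 0.791). With a window of 100 bp, which misses the leading start, the level was at most 4.15 TPM and the log2 fold change 2.03.

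That leading start of Spry2, chr14:105897126 on the minus strand, lay 307 bp upstream of the only annotated 5′ end. Its share of the window was 57.8% ± 4.81 for mESCs and 48.2% ± 3.29 for mOPCs (SD, n = 3), and the position 1 bp upstream took 8.56% ± 0.93 and 12.2% ± 2.38. The 10th to 90th percentile span was 16, 30 and 24 bp in mESCs and 46, 44 and 44 bp in mOPCs, without overlap (exact permutation p = 0.1), a mean difference of 21.3 bp that shrank to 2.67 bp for the central 50% of tags.

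Dusp6, the ERK phosphatase, rose in mOPCs, where it was the most abundant of the 10 genes on average. It held 82.3, 78.3 and 71.4 TPM in mESCs and 164, 110 and 137 in mOPCs. All mOPC libraries lay above all mESC libraries, and the difference was 1.74-fold (log2 0.80, SE 0.12, adjusted p = 6.28e-06, edgeR). Over all alternatives the log2 value stayed between 0.60 and 0.96.

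The added Dusp6 tags mostly did not start at the leading position, chr10:99263230. That position held 42.3 TPM on average in mESCs and 42.7 in mOPCs. Its share was 55.4%, 54.6% and 54.9% in mESCs and 30.5%, 36.2% and 29.5% in mOPCs, lower in each mOPC library. A start 78 bp downstream took 5.32% ± 0.36 in mESCs and 6.96% ± 0.90 in mOPCs (SD, n = 3). The 10th to 90th percentile span was 79 bp in every mESC library and 252, 154 and 246 bp in mOPCs (exact permutation p = 0.1). The mean difference was 138 bp, and 56.7 bp for the central 50% of tags.

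Further into Dusp6, the window at chr10:99263777-99264777 held 17, 5 and 4 tags in mESCs and 68, 28 and 64 in mOPCs. Its share was 0.411% ± 0.12 and 1.30% ± 0.52 (SD, n = 3), and it was called more used in mOPCs (log2 difference 1.05, adjusted p = 0.0434, diffSpliceDGE). This call was lost without mESC library 1 (adjusted p = 0.164), 2 (0.158) or 3 (0.152), and without mOPC library 3 (0.0825). The next window, at chr10:99265141-99266141, held 3, 4 and 0 tags in mESCs and 30, 13 and 33 in mOPCs, with an adjusted p of 0.0503. Its adjusted p (diffSpliceDGE) was 0.341, 0.0917 and 0.195 without mESC library 1, 2 and 3. Without mOPC library 1 or 2 it was 0.00213 and 5.96e-05, and without mOPC library 3 the window was not among the regions tested.

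Etv5, an ETS transcription factor induced by FGF signalling, was slightly lower in mOPCs. It held 94.0, 85.4 and 91.7 TPM in mESCs and 81.1, 74.5 and 70.2 in mOPCs. The groups did not overlap, and the fit called a log2 difference of -0.29 (SE 0.085, adjusted p = 0.00143, edgeR), which is -0.10 relative to the median of all genes. Without a filter on low counts it was not called (-0.16, adjusted p = 0.136).

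As in Spry4, the balance of 2 neighbouring starts in Etv5 differed between the cell types. The C at chr16:22439619, the first capital in the sequence above, took 29.5%, 32.8% and 30.5% of tags in mESCs and 40.5%, 41.5% and 37.9% in mOPCs. The C at chr16:22439617 took 38.2%, 34.3% and 36.5% in mESCs and 25.9%, 23.4% and 25.3% in mOPCs. The leading start was thus the downstream one in every mESC library and the upstream one in every mOPC library. In mESC library 2, at 34.3% against 32.8%, this was a near tie. The span was 22 to 24 bp throughout. The opposite strand of this promoter held 4.46 ± 0.40 TPM in mESCs and 1.91 ± 0.28 in mOPCs (SD, n = 3), without overlap (exact permutation p = 0.1).

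**Figure D4:**
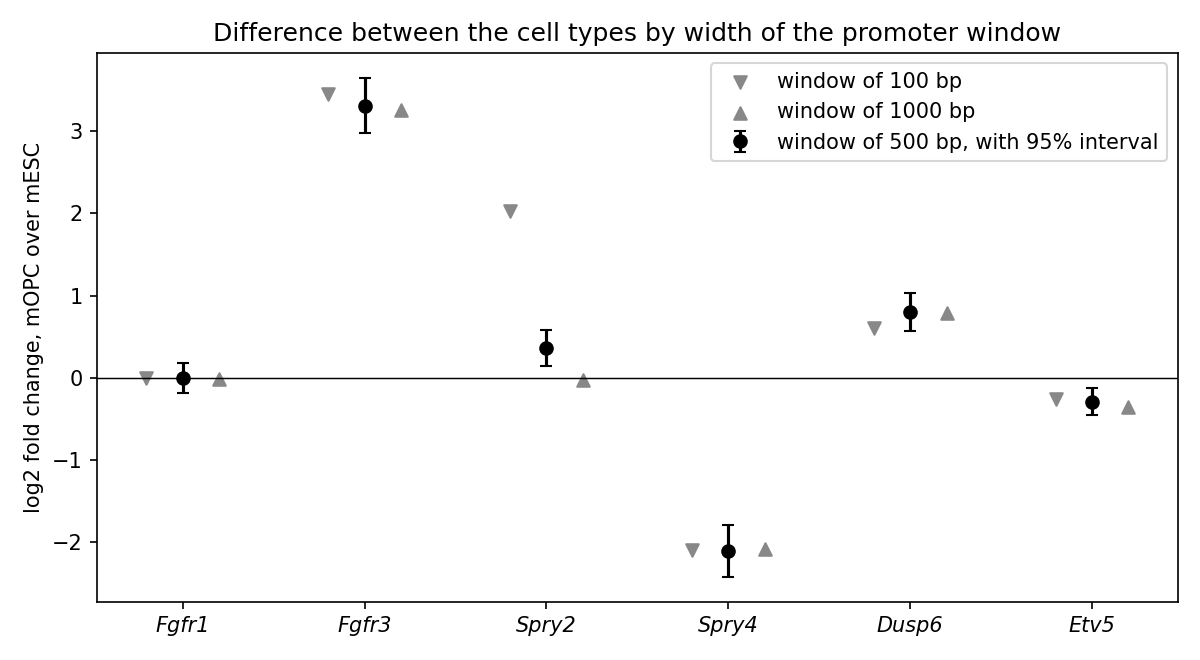
Log2 fold change (mOPCs over mESCs) of 6 members counted within 500 bp of annotated 5′ ends (points with bars) and within 100 or 1000 bp (triangles). Bars are 95% intervals from the SE by a normal approximation, narrower than the edgeR test implies. Spry2 went from 2.03 to -0.026 as the window widened, while the other 5 kept their direction or stayed near 0.

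In order of level, mESCs ran from Fgf4 (419 ± 19.0 TPM) and Spry4 (365 ± 25.4) through Etv5 (90.4 ± 4.42), Spry2 (83.1 ± 10.4) and Dusp6 (77.3 ± 5.52) to Fgfr1 (31.3 ± 0.79), Fgfr2 without shared tags (11.9 ± 1.56), Fgfr4 (7.96 ± 0.47), Fgfr3 (1.16 ± 0.32) and Fgf5 (0.105 ± 0.077; SD, n = 3). Libraries of neighbours in this order overlapped for Etv5 and Spry2 and for Spry2 and Dusp6. The mESC order also depended on the window. At 1000 bp Spry2 (124, 102 and 105 TPM) lay above Etv5 (100, 90.1 and 95.6). At 100 bp, which misses their leading starts, the mESC means of Spry2 and Fgfr4 were 0.726 and 0.0088 TPM. In mOPCs the order was Dusp6 (137 ± 27.0), Spry2 (109 ± 16.7), Spry4 (86.5 ± 22.1), Etv5 (75.3 ± 5.52), Fgfr1 (31.8 ± 3.77) and Fgfr3 (12.4 ± 0.17), with the remaining genes below 1. There, each of the first 4 overlapped with its neighbour, and Etv5 lay above Fgfr1 and Fgfr1 above Fgfr3 in every library.

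The genes around the 10 members were taken from 5 lists of 64 genes, of which 54 were tested, with 21 called higher and 26 lower in mOPCs. These lists were chosen with earlier results known, and their calls, like those of the members, are to be read against 42.1% and 48.9% of all genes.

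Of 16 other FGF ligands, 10 were tested, with 3 higher and 7 lower in mOPCs and a median log2 fold change of -3.44, against -0.19 over all genes. This median is the mean of Fgf15 (-5.18) and Fgf20 (-1.69), neither at 0 in a cell type. Setting genes at 0 to their bound left it at -3.44 and could not move it, since those bounds lay outside this pair. Fgf3, Fgf10, Fgf15, Fgf17 and Fgf22 averaged at most 0.177 TPM in mOPCs and passed the filter through mESCs alone. Fgf7 passed it through mOPCs alone. Fgf3 and Fgf10, a ligand of epithelial buds, had no tag in any mOPC library. Fgf10 had 16.3 ± 3.46 TPM in mESCs (SD, n = 3) and was at least 467-fold lower in mOPCs. Fgf17 went from 12.4 ± 1.32 to 0.0441 ± 0.050 and Fgf15 from 6.82 ± 0.91 to 0.177 ± 0.042. Fgf1 was higher in mOPCs, at 6.21 ± 0.54 against 4.24 ± 0.17, as were Fgf9 (0.890 ± 0.063 against 0.388 ± 0.089) and Fgf7, with 1.19 ± 0.044 against no tag in mESCs. Fgf2, the gene for the bFGF that was added to the mOPC medium, had 33 tags in all mESC libraries and 12 in those of mOPCs and did not pass the filter. Of the 4 intracellular FGF homologous factors, which act on sodium channels and not on receptors, Fgf11 and Fgf12 were higher and Fgf13 lower. Fgf12 went from 0.251 ± 0.12 to 15.2 ± 1.81 TPM.

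Co-receptors and binding proteins included 13 tested genes, with 5 higher, 6 lower and a median log2 fold change of -0.07. Heparan sulfate proteoglycans, which hold FGFs at their receptors, differed by gene. Sdc4 went from 172 ± 17.0 TPM to 1 tag in all mOPC libraries, and Gpc3 from 37.6 ± 3.20 to none (at least 1122-fold lower). In the opposite direction, Sdc3 went from 3.34 ± 0.62 to 84.9 ± 4.98 and Gpc1 from 7.30 ± 0.12 to 88.0 ± 7.44 (SD, n = 3). Fgfrl1, a receptor without a kinase domain, went from 8.52 ± 0.59 to 54.1 ± 2.25, and Klb, the co-receptor of hormone-like FGFs, from 4.66 ± 0.27 to 0.0478 ± 0.049.

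All 17 genes of the RAS-ERK relay were tested, with 8 higher, 5 lower and a median log2 fold change of 0.17. Nras fell from 201 ± 11.7 to 92.7 ± 0.29 TPM, whereas the adaptor gene Gab1 rose from 16.3 ± 2.11 to 125 ± 3.97 (SD, n = 3). Mapk3, a kinase gene of the relay, was not called, with a log2 fold change of 0.17 (SE 0.087, adjusted p = 0.0597, edgeR). Of 12 other feedback and target genes, 11 were tested (Spry3 was not analysed here), with 3 higher, 7 lower and a median of -0.89. Spry1 rose from 42.8 ± 4.62 to 225 ± 25.5 TPM and Spred3 from 2.09 ± 0.41 to 24.2 ± 1.07. Dusp9, a phosphatase of ERK, went from 24.6 ± 2.46 to no tag, at least 776-fold lower, and Etv1 fell from 156 ± 5.32 to 55.3 ± 1.34, while Etv4, at 38.0 ± 3.33 and 37.2 ± 4.72, was not called (adjusted p = 0.531, edgeR).

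**Figure D5:**
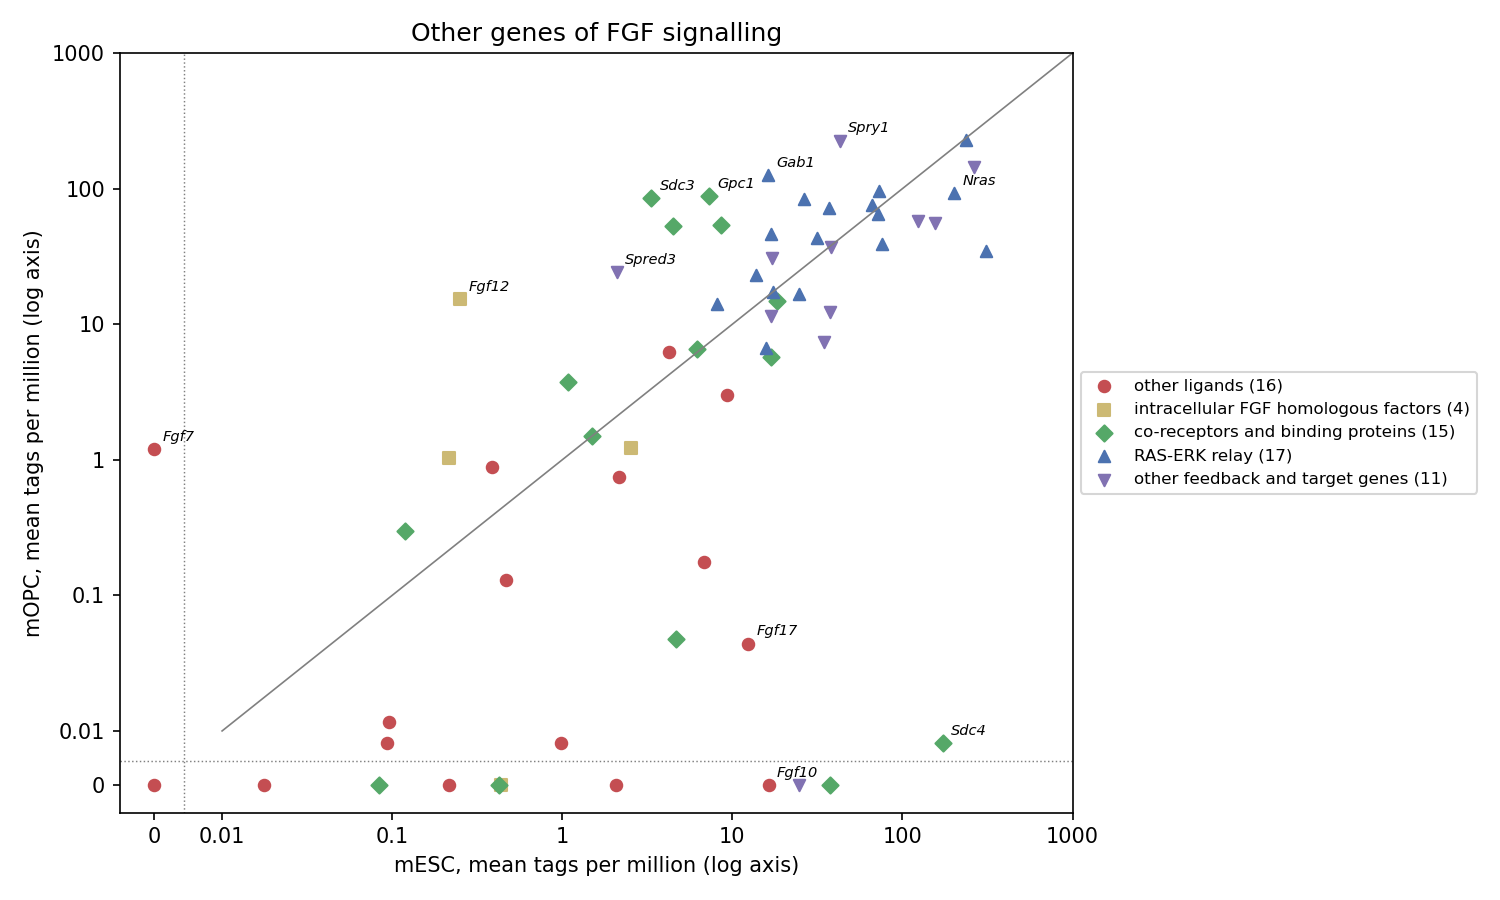
Mean TPM in mESCs and mOPCs for 63 genes of 5 lists of the FGF pathway, on log axes with means of 0 drawn beyond the dotted lines; the grey diagonal marks equal levels. Most ligands lay below the diagonal, and Sdc3, Gpc1 and Spry1 lay above it.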

How the data were processed

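The authors aligned CAGE tags uniquely to mm10 and deposited, for every genomic position and strand, unnormalized counts of the tags that start there. The paper's methods name bowtie and CAGEr, while the submitters' processing notes list CASAVA 1.8 and BWA 0.5.9. Whether a base added at the cap was trimmed is not given in the sources used here. Libraries held 16657021 to 40928704 tags, which limits genes with few tags. Libraries were grouped by their titles.

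Here, positions within 500 bp of GENCODE vM21 5′ ends were summed per gene, and windows of a gene that overlap were joined into promoter regions (Python 3.11.15, numpy 2.4.6, pandas 2.3.3, scipy 1.17.1, matplotlib 3.10.9). All genes were fitted with edgeR 4.0.16 (R 4.3.3; robust quasi-likelihood, TMM on library totals, filterByExpr, Benjamini-Hochberg), promoter use with diffSpliceDGE, and DESeq2 1.42.0 served as an alternative. Both edgeR steps were tested on simulated data in which far fewer genes or regions changed than were called here, so that this test does not cover such data. Single values were compared by two-sided exact permutation tests. Spans of starts needed 20 tags in a library. They used the region with the most tags of which no other gene shared the window, which for Fgfr2 departs from the design. Folds against 0 tags are bounds from 3 tags pooled over the group. Pooled counts of 1 to 3 are given as ratios with 95% exact binomial intervals. Other windows, filters, scalings, depths and left-out libraries were tried. All 10 members were named, and of the lists only called genes, with the 3 protein-coding genes nearest to the member that rose most and to the one that fell most; Fgf2, Mapk3 and Etv4 were added after their values were seen. The members and lists were chosen with earlier results of these data known. Libraries of a group differed by more than sampling noise (chi-square per degree of freedom 4.65 to 11.3 over genes). All 6 libraries were kept. Some genes of the lists are not reported here by name. The RNA–DNA contact data of the paper were not used.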

Additional observations from a re-analysis of the deposited data

How the results depend on the processing

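Calls of Fgf4, Fgfr2, Fgfr3, Spry4 and Dusp6, and the absence of a call for Fgfr1, kept their direction or side of the threshold under all 17 alternatives, and those of Fgfr4 under 16, since it was not tested with a window of 100 bp. Spry2 reversed to -0.026 with a window of 1000 bp, which takes in starts beyond 500 bp. Etv5 was no longer called without a filter on low counts (-0.16), where Fgf5 was called lower instead (-4.25). Members called higher in mOPCs numbered 2 or 3 and those called lower 4 or 5 in every alternative. The median log2 fold change of all genes lay between -0.23 and -0.02. Promoter use of members was less stable, with few tags behind it. Regions called more used in mOPCs numbered 0 with library totals alone, a window of 100 bp, 1-tag positions left out or thinned libraries, 2 with the replicate block, and 0 to 2 with 1 library left out. Regions called less used numbered 1 with a window of 100 bp or thinned libraries and 4 with a window of 1000 bp. With 1-tag positions left out they again numbered 2, but these were the first Fgfr1 region and Fgfr2's own region (-1.22). In all these fits Fgfr2's own region was compared with the window shared with Ctbp2, so its value is no shift between promoters of Fgfr2 alone. Over all genes, 1188 regions were more used and 1039 less used with 5′ ends of protein-coding transcripts only, and 1469 were more used with 1-tag positions left out. The width of Fgfr1 reversed to -12.3 bp (mOPCs minus mESCs) for the 25th to 75th percentile, and those of Spry2, Spry4 and Dusp6 shrank to 2.67, 2.0 and 56.7 bp.

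Replicate numbers did not pair the libraries (correlations of same-numbered deviations 0.0091, 0.048 and 0.0096). With the replicate block, 7794 genes were called higher and 9039 lower, no member's call changed, and the window of Dusp6 at chr10:99265141-99266141 was called more used.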

Other observations

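Beyond the annotated windows, starts on the strand of the members, each with at least 2 tags, were joined where at most 20 bp apart and kept with at least 30 tags over all libraries. These clusters were chosen after their values were seen and are given as values. The largest near Dusp6, at chr10:99243876-99244043, lay 19289 bp upstream of its first annotated 5′ end, outside any annotated transcript on that strand. It held 1420, 1692 and 2365 tags in the mOPC libraries, 60.4 TPM on average, and no tag in any mESC library. Nearer to the gene, the cluster at chr10:99261501-99261679 held 25, 6 and 13 tags in mESCs and 179, 225 and 357 in mOPCs.

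Inside Fgfr1, a cluster at chr8:25548152-25548281 held 332, 162 and 150 tags in mESCs, 8.88 TPM on average, and none in mOPCs, while the summed level of the gene's annotated promoters was not called different between the lines. Inside Etv5, the cluster at chr16:22411748-22411950 held 551, 257 and 253 tags in mESCs and 3, 1 and 1 in mOPCs. Just beyond the Spry2 window, the cluster at chr14:105897322-105897585 held 734, 255 and 326 tags in mESCs and 16, 23 and 45 in mOPCs, and these are among the tags that a window of 1000 bp added to Spry2. Inside Fgfr4, the cluster at chr13:55167125-55167169 held 66, 25 and 31 tags in mESCs and none in mOPCs. For each of these 6 clusters the libraries of the cell types did not overlap, and the smallest p of an exact permutation test is 0.1. The same held for most of the clusters kept near the members, so that it is no result about these 6. Which RNA the tags of a cluster belong to was not tested.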
